A study of Mus musculus with 16 samples.

Results

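The ectodysplasin pathway was followed through 10 genes in sorted cells of embryonic mouse skin. The genes were taken by symbol from a table of 23235 rows: Eda, Edar, Edaradd, Eda2r, Tnfrsf19, Traf6, Nfkbia, Nfkbib, Relb and Ltb. Each was found once. Of the 10, 9 passed the filter for testing, an FPKM (fragments relative to the length of the transcript and the size of the library) of at least 1 in at least 2 of the 16 libraries. Eda2r reached that level in 1 library and is left out of the counts of called members.

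The libraries came from skin at embryonic day 14.5, split by fluorescence-activated sorting into 8 fractions with 2 libraries each. Fractions carry short names in the labels, read here from general knowledge as placode (Pc), epidermis (Epi), dermal condensate (DC), fibroblast (Fb), Schwann cell (Sch), melanocyte (Mc), a mixture of condensate and Schwann cells (DCSch) and the cells left unmarked (Neg). Strain, genotype, the sorting markers and the number of embryos behind a library are not analysed here, since the labels used do not state them, and no treatment is named. All fractions share the age and the tissue. Nothing says that replicates 1 and 2 came from separate embryos, so each p-value covers the spread between these libraries, which may be technical.

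Ectodysplasin, the product of Eda, is a ligand of the tumour necrosis factor (TNF) family that drives the formation of hair, teeth and sweat glands. It binds the receptor Edar, which recruits the adaptor Edaradd and Traf proteins, and the signal frees NF-kB from its IkB inhibitors so that it can enter the nucleus. Mice and people lacking the ligand, the receptor or the adaptor have sparse hair, and in mice the first hair placodes do not form.

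The labels of the fractions were set against fixed marker lists. The 7 keratinocyte markers summed to 4916 and 3786 FPKM in the 2 Pc libraries and to 4676 and 4050 in Epi. In the other fractions the same sum was 661 and 461 in Mc, 239 and 41.2 in Sch, and 39.2 to 88.0 in the rest. The placode list, which contains Edar itself, summed to 84.2 and 63.1 FPKM in Pc and to 32.4 and 20.8 in Epi. Epidermal differentiation genes summed to 6158 and 5470 FPKM in Epi and to 1421 and 718 in Pc, so they move with every difference between Pc and Epi given below, and their part in those differences was not tested. Of the lists that carry the name of a fraction, fibroblast, dermal condensate, Schwann cell and melanocyte genes each had their highest sum in that fraction. Leukocyte, mast cell, endothelial, erythroid and muscle genes peaked in Neg. Library totals ran from 439201 to 606437 FPKM, and 11273 to 12137 rows reached 1 FPKM. Depth in fragments could be estimated for replicate 2 libraries, at 6.82 to 25.6 M fragments, and not for replicate 1. In bulk RNA, fewer cells of a type and less RNA per cell cannot be told apart, and this applies to every level below.

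Promoters of 3 members are shown because they carry a short motif of the Wnt or NF-kB pathway. They are the 250 bases before the annotated start in RefSeq (build GRCm38.p6), printed 5′ to 3′ on the strand of the gene, with the motif in capitals. Edar lies at chr10:58675697-58675946, minus strand. Nfkbia lies at chr12:55492648-55492897, minus strand. Ltb lies at chr17:35194257-35194506, plus strand.
Edar: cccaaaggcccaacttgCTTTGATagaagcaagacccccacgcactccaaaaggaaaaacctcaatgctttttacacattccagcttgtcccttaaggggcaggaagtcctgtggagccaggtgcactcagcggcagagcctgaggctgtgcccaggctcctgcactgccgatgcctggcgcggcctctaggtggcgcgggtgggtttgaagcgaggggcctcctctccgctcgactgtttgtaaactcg
Nfkbia: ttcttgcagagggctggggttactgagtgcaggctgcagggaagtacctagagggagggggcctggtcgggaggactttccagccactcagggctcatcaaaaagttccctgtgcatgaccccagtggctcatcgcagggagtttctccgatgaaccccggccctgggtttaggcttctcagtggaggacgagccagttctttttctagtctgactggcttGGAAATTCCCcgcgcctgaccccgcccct
Ltb: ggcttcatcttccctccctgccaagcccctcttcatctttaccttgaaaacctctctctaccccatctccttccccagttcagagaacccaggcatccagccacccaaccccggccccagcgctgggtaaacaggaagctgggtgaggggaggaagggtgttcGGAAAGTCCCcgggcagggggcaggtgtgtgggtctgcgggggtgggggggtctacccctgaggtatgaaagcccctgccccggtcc
The capitals in Edar are CTTTGAT, a core motif of the TCF/LEF factors that act in Wnt signalling, 233 bases before the start. Those in Nfkbia and Ltb match, on the opposite strand, the kB consensus bound by NF-kB, 29 and 87 bases before the start. Both motifs were searched on both strands of windows reaching from 250 bases before to 50 bases after the start, and they were counted separately. A kB match was found in 2 of the 9 members with a promoter entry and in 8.46% of all 32851 promoters of that length. Members, and the listed genes below, count once if any of their promoters matched, while the shares over all are per promoter. CTTTGAT was found in Edar and in the second of the 2 Tnfrsf19 promoters, and in 3.73% of all promoters. Relb had no entry. These matches are descriptions of letters and not of binding. Among the other pathway genes with an entry, a kB match stood in 5 of 6 NF-kB subunit and IkB genes (Bcl3, Nfkb2, Nfkbid, Nfkbie, Rel), in 4 of 15 signal chain genes (Cyld, Map3k7, Tnfaip3, Traf3), in 3 of 6 reported targets (Cxcl10, Madcam1, Wnt10b) and in 0 of 11 TNF family relatives.

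A shared test set the scale for all members. Values were moved to log2(FPKM + 1), on which differences understate the change of low genes, and fitted with limma over all 14171 rows that passed the filter. A member counts as called when its limma p-value, adjusted over those rows by the Benjamini-Hochberg method, is under 0.05 and its log2 difference is 1 or more in size. Of the 9 tested members, 7 differed among the 8 fractions by the limma F test at the same adjusted p and without a size threshold, where 55.8% of all rows did. With the replicate number as a term, 8 of 9 did, against 80.6% of all rows. The members without a call were Nfkbib (adjusted p = 0.556, and 0.107 with the replicate term) and Relb (adjusted p = 0.105, and 0.000464 with it).

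**Figure D1:**
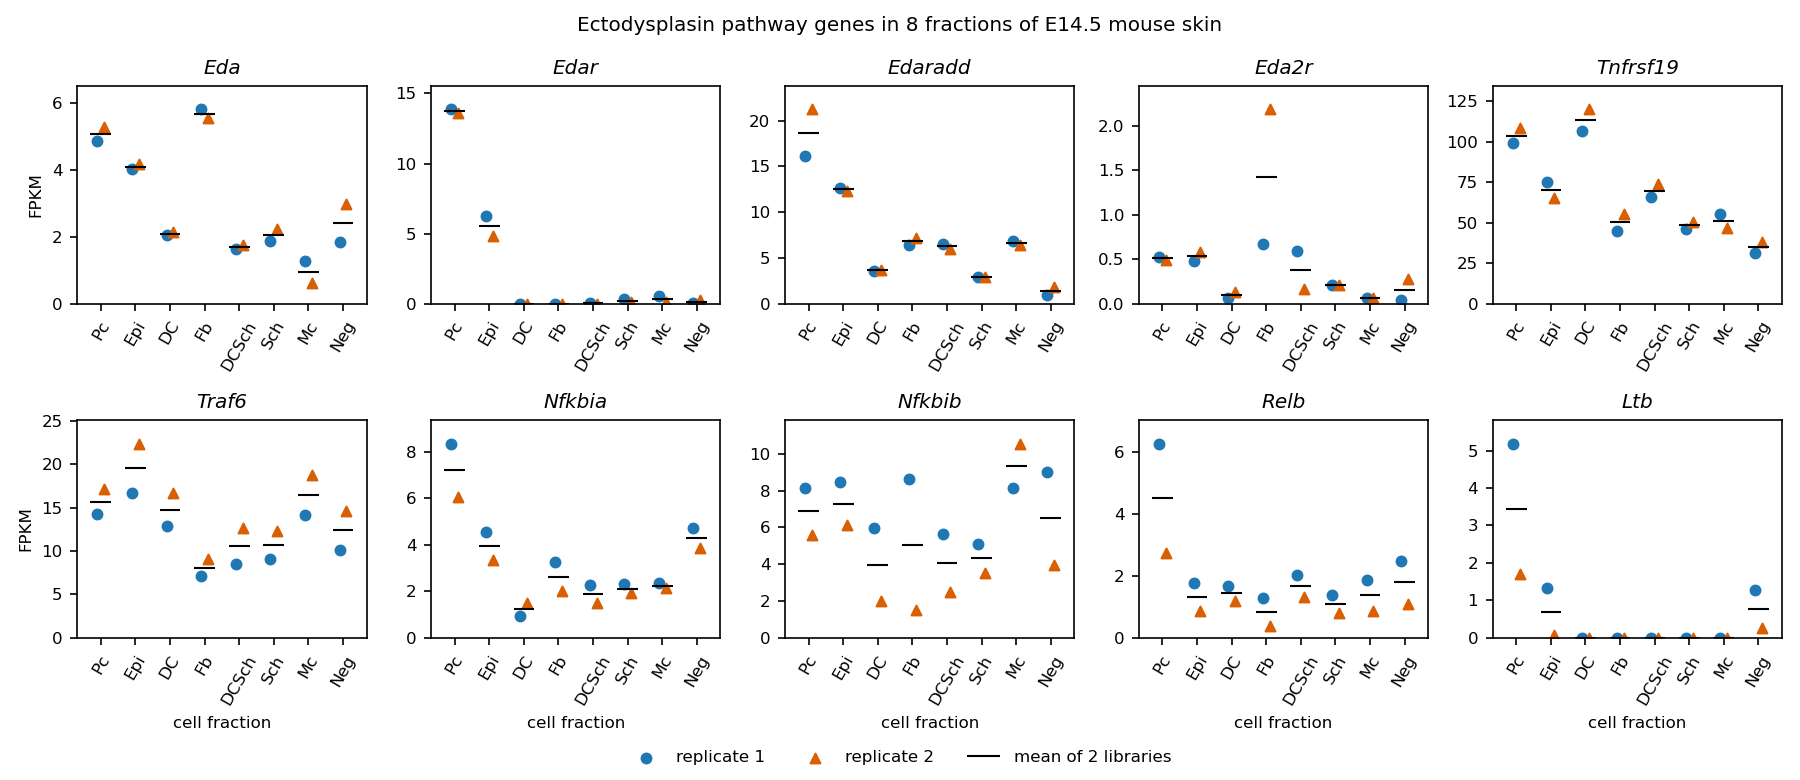
Level of each of the 10 genes in FPKM (vertical axis, linear, its own scale for each gene) in the 8 fractions (horizontal axis), with a circle for replicate 1, a triangle for replicate 2 and a bar at their mean. Edar stands near 0 outside Pc and Epi, Eda is highest in Fb and Pc, Tnfrsf19 is highest in DC and Pc, and Ltb is above 0 in Pc, Epi and Neg.

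The ligand gene Eda (mm10, chromosome X, 99975606 to 100400760) was highest in fibroblasts and in both keratinocyte fractions. Its 2 libraries gave 5.80 and 5.54 FPKM in Fb, 4.85 and 5.27 in Pc, and 4.02 and 4.16 in Epi. It gave 1.84 and 2.98 FPKM in Neg, 2.04 and 2.15 in DC, and 1.87 and 2.22 in Sch. The lowest values were 1.64 and 1.75 FPKM in DCSch and 1.26 and 0.619 in Mc. Fb, Pc and Epi therefore stood apart from the other 5 fractions without overlap, and in this order their libraries did not overlap each other either. Neighbours in the order were still not separated by the test: Fb exceeded Pc by 0.14 log2 units (adjusted p = 0.71 in limma) and Pc exceeded Epi by 0.25 (adjusted p = 1). Epi exceeded Neg by 0.60 (adjusted p = 0.0692).

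Eda was lower in the dermal condensate than in the fibroblasts around it. Mean Eda was 2.09 ± 0.0736 FPKM (SD, n = 2) in DC and 5.67 ± 0.186 in Fb, and the log2 difference was -1.11 (SE 0.22, limma adjusted p = 0.00359). The DC to Fb ratio was 0.352 in replicate 1 and 0.387 in replicate 2. Fb was also called above DCSch by 1.31 (adjusted p = 0.00203), above Sch by 1.13 (adjusted p = 0.00283) and above Mc by 1.80 (adjusted p = 8.18e-05) in limma, where 8.85%, 15.4% and 19.4% of all rows were called. In all, 7 of the 28 pairs of fractions were called for Eda, where the share of all rows called ran from 1.52% to 28.7% over the pairs with a median of 18.5%. The fibroblast markers summed to 8132 and 6537 FPKM in Fb and to 95.5 and 64.0 in Pc. The part of fibroblast RNA in the Eda values was not tested.

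Edar (chromosome 10, 58600788 to 58675696), the receptor for the ectodysplasin made from Eda, was confined in these libraries to the keratinocyte fractions at levels above 1 FPKM. It measured 13.9 and 13.6 FPKM in Pc against 6.24 and 4.82 in Epi. Every library of the other 6 fractions lay at or below 0.505 FPKM, and both DC and both Fb libraries are listed at 0. In the DC and Fb libraries of replicate 2, 1 fragment of Edar would have been worth 0.0286 and 0.0366 FPKM, so single fragments mark the depth at which Edar could have been seen there. The Pc and Epi libraries of replicate 2 correspond to about 682 and 293 fragments, and those of Neg, Mc and Sch to about 7.88, 7.89 and 2.95.

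Edar was higher in the placode than in the epidermis. The means were 13.7 ± 0.197 and 5.53 ± 1.01 FPKM (SD, n = 2 each), a ratio of 2.48 between the means, of 2.22 within replicate 1 and of 2.82 within replicate 2. The log2 difference was 1.18 (SE 0.19, limma adjusted p = 0.00967). It was the 1 member of 9 tested that was called in this comparison, where 1.52% of all rows were called and 0.155% were called higher in Pc. The call was lost without Pc replicate 2 (adjusted p = 0.0746), without Epi replicate 2 (0.153), in a fit of the 4 libraries alone (0.0766) and with a pseudocount of 0.1 (0.618), each time with a log2 difference between 1.02 and 1.31. Epi in turn exceeded Mc, the next fraction, by 2.34 (limma adjusted p = 5.51e-06), where 17.9% of all rows were called.

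Traces of Edar in Mc and Sch stood beside keratinocyte markers. Mc gave 0.505 and 0.0896 FPKM of Edar beside keratinocyte sums of 661 and 461. Sch gave 0.297 and 0.126 FPKM beside sums of 239 and 41.2. In both fractions the replicate with the higher marker sum had the higher Edar value, and the part of such keratinocyte RNA in these values was not tested. Neg gave 0.0270 and 0.265 FPKM of Edar beside sums of 75.5 and 88.0, and DCSch gave 0.0325 and 0 beside 83.6 and 63.6. Fb had sums of 81.7 and 63.5 and DC of 43.2 and 39.2, with Edar listed at 0 in both fractions.

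Among the genes whose pattern over the 16 libraries was most like Edar, out of 11197 candidates with a mean of at least 5 FPKM in some fraction, were Slc25a48 (Pearson's r = 0.991), Art4, Wnt10b and Dkk4 (each 0.990). These 4 had their highest mean in Pc. These libraries form 8 pairs from the same fractions, so the coefficients describe the pattern only. For Eda the nearest were Mlec (0.929), 2610203C20Rik (0.918), Hoxb3 (0.908), Zfp36l2 (0.888) and Morc4 (0.883), lower than for Edar.

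Edaradd (chromosome 13, 12471209 to 12520450), the death-domain adaptor that docks on Edar, had the same leading fractions as the receptor and a much wider base. It measured 16.2 and 21.3 FPKM in Pc against 12.7 and 12.3 in Epi. It measured 6.42 and 7.19 FPKM in Fb, 6.86 and 6.45 in Mc, and 6.54 and 5.97 in DCSch. The remaining fractions had 3.61 and 3.63 FPKM in DC, 2.95 and 2.95 in Sch, and 0.884 and 1.76 in Neg. Unlike Edar, the adaptor was therefore present at several FPKM in fibroblasts, where the receptor is listed at 0. Pc exceeded Epi by 0.53 log2 units, which was not called (limma adjusted p = 0.458), although the libraries did not overlap. Edaradd was called in 13 of the 28 pairs of fractions, as was Edar. Every fraction except Sch was called above Neg for Edaradd, and Pc was called above every fraction except Epi.

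Eda2r (chromosome X, 97333841 to 97377209) encodes the X-linked receptor for the other splice form of ectodysplasin. It was low throughout, with 0.672 and 2.19 FPKM in Fb, 0.483 and 0.580 in Epi, and 0.529 and 0.496 in Pc. DCSch gave 0.597 and 0.166 FPKM, Sch 0.210 and 0.214, and Neg 0.0387 and 0.278. DC gave 0.0680 and 0.129 FPKM and Mc 0.0674 and 0.0600. The Fb libraries differed by more than 3-fold, yet both lay above every library of the other fractions. The filter left Eda2r out of the main fit. With the filter lifted, limma gave -1.07 log2 units for DC against Fb (SE 0.25, adjusted p = 0.0128). The difference was -0.65 within replicate 1 and -1.50 within replicate 2. The fit shares 1 spread over all fractions, and the Fb libraries differed by 0.93 log2 units. This SE and p-value therefore understate the spread in Fb. The genes with the most similar pattern were Col8a1 (r = 0.832), 2610017I09Rik, Kcnk2, Angptl1 and Glt8d2 (0.803), all highest in Fb.

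Tnfrsf19 (chromosome 14, 60963834 to 61046855), also called Troy, is a receptor of the same family related to Edar that is not known to bind ectodysplasin. It was the most abundant member in every fraction, and its mean was highest in DC. It measured 107 and 120 FPKM in DC, 99.1 and 108 in Pc, and 75.4 and 65.5 in Epi. It measured 65.7 and 74.0 FPKM in DCSch, 55.5 and 46.6 in Mc, and 45.2 and 55.7 in Fb. The lowest were Sch with 46.2 and 50.6 FPKM and Neg with 31.1 and 38.3. The condensate exceeded the fibroblasts by 1.16 log2 units (SE 0.18, limma adjusted p = 0.000679), with ratios of 2.37 and 2.16 within replicates 1 and 2. DC and Pc, the 2 fractions named for parts of the hair follicle, overlapped and differed by 0.13 (limma adjusted p = 0.652). Pc exceeded Epi by 0.55 without a call (limma adjusted p = 0.256), and the adjusted p was 0.0361 with the replicate term, still under the size threshold.

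DC against Fb thus had 2 called members of 9 tested, Tnfrsf19 higher and Eda lower, where 15.3% of all rows were called, 6.13% higher and 9.2% lower. In a fit of the 4 libraries alone neither was called (adjusted p = 0.0577 and 0.0967 in limma). The genes most like Tnfrsf19 over the 16 libraries were Galnt3 (Pearson's r = 0.917), Eif2c4 (0.915), Ctnnb1 (0.892), Pnrc1 (0.888) and Lef1 (0.883). Ctnnb1 encodes beta-catenin and Lef1 a TCF/LEF factor, both of the Wnt pathway.

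**Figure D2:**
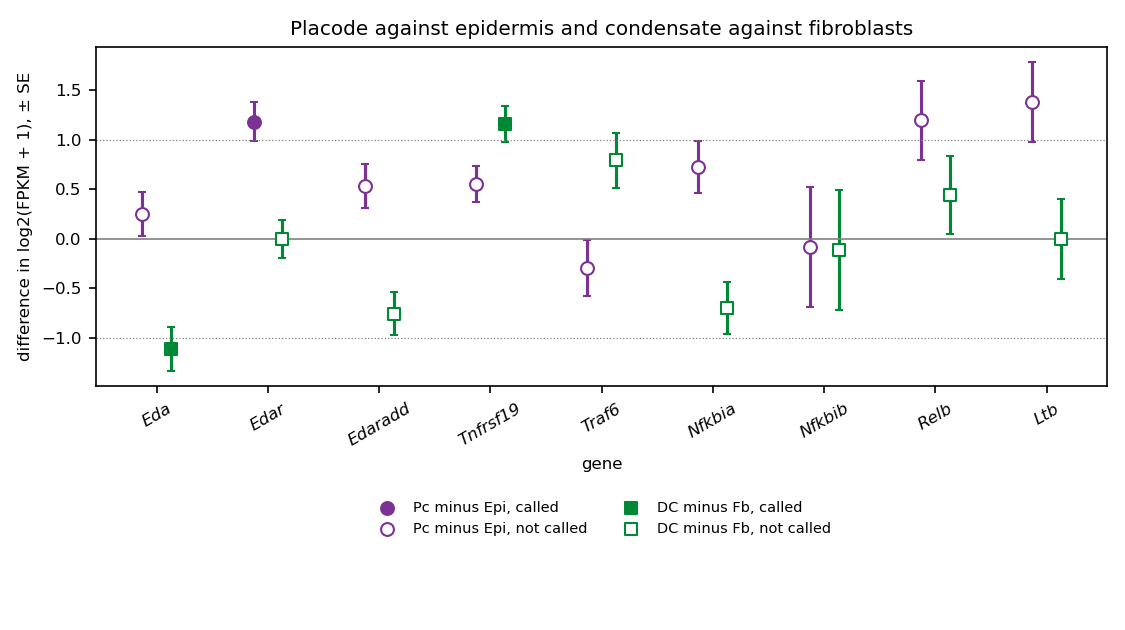
Difference in log2(FPKM + 1) (vertical axis) for the 9 tested members (horizontal axis), with Pc minus Epi as circles and DC minus Fb as squares; bars are ± 1 SE of the limma fit, filled symbols are called, and dotted lines mark a size of 1. Edar is the 1 filled circle at 1.18, and Eda at -1.11 and Tnfrsf19 at 1.16 are the filled squares.

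Traf6 (chromosome 2, 101678440 to 101700974) encodes a ubiquitin ligase that passes the signal from Edaradd to the kinases upstream of NF-kB. It was present in all 16 libraries, from 7.15 to 22.4 FPKM. The highest fraction was Epi with 16.7 and 22.4 FPKM, and the lowest was Fb with 7.15 and 9.04. That pair was the 1 of 28 called (log2 difference 1.17, limma adjusted p = 0.00614), where 24.5% of all rows were called. Libraries of neighbouring fractions overlapped at all 7 steps of the order. Replicate 2 was higher than replicate 1 in all 8 fractions, as it was for 19.7% of the rows tested.

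Nfkbia (IkB alpha), an inhibitor that holds NF-kB in the cytoplasm and is itself induced by NF-kB, had its highest level in Pc. It measured 8.36 and 6.08 FPKM in Pc, 4.75 and 3.87 in Neg, and 4.56 and 3.37 in Epi. It measured 3.26 and 2.01 FPKM in Fb, 2.36 and 2.13 in Mc, and 2.31 and 1.92 in Sch. The lowest were DCSch with 2.28 and 1.48 FPKM and DC with 0.951 and 1.503. Both Pc libraries lay above all other libraries. The ratio of Pc to Epi was 1.84 in replicate 1 and 1.80 in replicate 2, and the log2 difference of 0.72 was not called (SE 0.26, limma adjusted p = 0.331, and 0.0700 with the replicate term). Pc was called above DC by 1.88 (adjusted p = 0.000125) and above Fb by 1.18 (adjusted p = 0.00427) in limma, where 27.5% and 21.9% of all rows were called. The file gives Nfkbia a locus of 211834 bases (chromosome 12, 55280814 to 55492647) that also spans 1110008L16Rik, Ppp2r3c and Psma6, while GENCODE gives the gene 3238 bases. Whether its values include fragments of those neighbours was not tested. The kB match printed above lies 29 bases before the annotated start of this gene.

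Nfkbib (chromosome 7, 28756174 to 28766524), the IkB beta gene, was not called among the fractions, and its replicates lay far apart. The Fb libraries gave 8.63 and 1.52 FPKM and the Neg libraries 9.00 and 3.98, while Mc gave 8.13 and 10.6. Pc gave 8.17 and 5.58 FPKM and Epi 8.45 and 6.15, a log2 difference of -0.08 (SE 0.61, limma adjusted p = 1). The 3 remaining fractions lay between 1.98 and 5.95 FPKM. Replicate 1 was higher in 7 of 8 fractions. Limma called 0 of the 28 pairs, and 3 with the replicate term, Mc above DC, Fb and DCSch. With that term the share of all rows called ran from 2.6% to 30.1% over the pairs, with a median of 20.2%. The locus of the row overlaps Ccer2.

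Relb (chromosome 7, 19606222 to 19629438) encodes an NF-kB subunit of the noncanonical branch and is a known NF-kB target. It measured 6.26 and 2.74 FPKM in Pc against 1.76 and 0.875 in Epi. The other fractions ranged from 0.377 FPKM in Fb to 2.48 in Neg. Both Pc libraries were above every other library. Replicate 1 was higher than replicate 2 in all 8 fractions, which held for 12.6% of the rows tested, and Pc exceeded Epi 3.56-fold in replicate 1 and 3.13-fold in replicate 2. The log2 difference of 1.20 was not called without the replicate term (SE 0.40, limma adjusted p = 0.253) and was called with it (SE 0.19, adjusted p = 0.00337). Of the 28 pairs 3 were called, Pc above DC, Fb and Sch, where 27.5%, 21.9% and 20.4% of all rows were called, and 5 with the replicate term.

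Ltb (chromosome 17, 35194507 to 35196305) encodes lymphotoxin beta, a TNF family ligand reported to act below Edar in skin. It measured 5.19 and 1.70 FPKM in Pc, 1.33 and 0.0636 in Epi, and 1.28 and 0.260 in Neg. The other 10 libraries are all listed at 0. Replicate 1 was the higher in each of the 3 fractions with signal, and Pc replicate 2 (1.70 FPKM) stood above Epi replicate 1 (1.33 FPKM). Pc exceeded Epi by 1.38 log2 units, not called without the replicate term (SE 0.40, limma adjusted p = 0.165) and called with it (adjusted p = 0.0317). Pc exceeded Neg by 1.27 (limma adjusted p = 0.0354), where 20.6% of all rows were called. The fit shares 1 spread over all fractions, and the replicates of those at 0 do not differ. Where Ltb is present they differed by 1.20 log2 units in Pc, 1.13 in Epi and 0.85 in Neg. The SE and p-values of Ltb, here and below, therefore understate the spread in these fractions. The replicate term takes 1 shift for all fractions, which those at 0 do not show. Lymphotoxin beta is also made by leukocytes. The 12 leukocyte markers summed to 4.17 and 2.00 FPKM in Pc with none at 1 FPKM, to 12.7 and 21.0 in Epi, and to 320 and 262 in Neg, where 10 of 12 reached 1 FPKM. Of these 12 markers, 1 is listed at 0 in Pc replicate 1 and 3 in Pc replicate 2. In Pc and Neg the replicate with the higher marker sum had the higher Ltb value, and in Epi it had the lower. The part of leukocyte RNA in the Ltb values of Pc, Epi and Neg was not tested.

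With the replicate term, 3 members were called higher in Pc than in Epi, Edar (adjusted p = 0.00335 in limma), Relb and Ltb, where 2.6% of all rows were called and 0.416% were called higher. The median log2 difference of the 9 tested members was 0.55, beside 0.00 over all rows. The term counts here because same-numbered libraries deviated together. Relb, Ltb and Nfkbib carried the largest single gaps between replicates, as the plot of replicate differences shows.

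**Figure D3:**
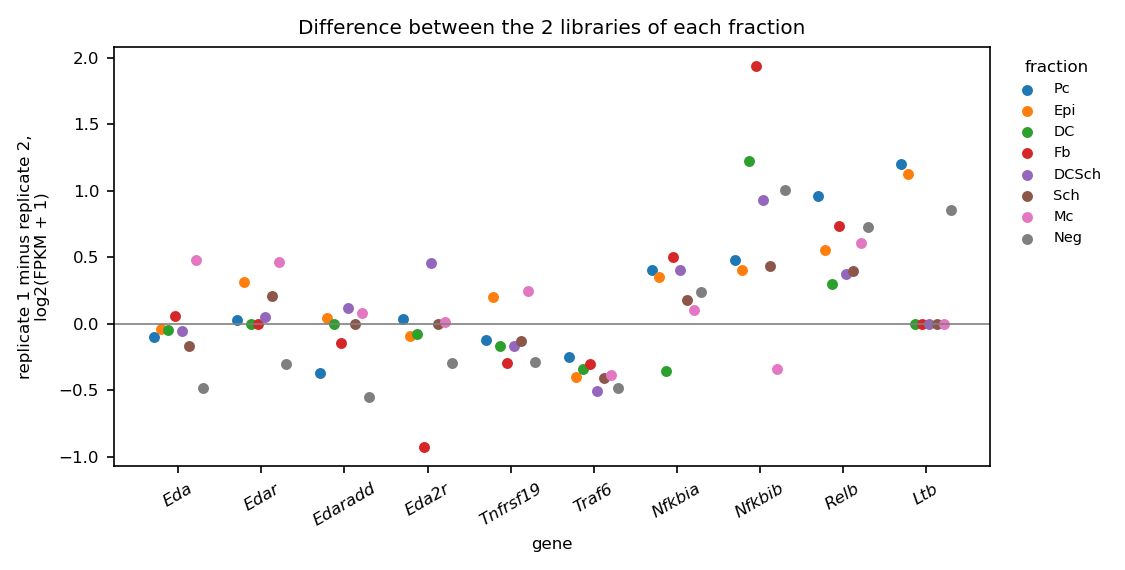
Replicate 1 minus replicate 2 in log2(FPKM + 1) (vertical axis) for the 10 genes (horizontal axis), with 1 point per fraction in its own colour. All 8 points of Relb lie above 0, all 8 of Traf6 lie below 0, and Nfkbib reaches 1.94 in Fb.

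The mean of both keratinocyte fractions was higher than that of the others for the receptor, its adaptor and Ltb. The mean of Pc and Epi was set against the mean of DC, Fb, Sch, Mc and Neg, with the mixed DCSch left out. Of 9 tested members 3 were called, all higher in the keratinocytes, where 19.3% of all rows were called and 7.83% were called higher. They were Edar (3.13, SE 0.12, limma adjusted p = 4.89e-09), Edaradd (1.77, adjusted p = 4.59e-07) and Ltb (1.19, adjusted p = 0.00143). Edar passed the filter only through the Pc and Epi libraries, the 4 that reached 1 FPKM. Its call in this comparison is therefore not independent of the filter. Ltb passed through 4 libraries, both of Pc, Epi replicate 1 and Neg replicate 1. The Ltb call reflects Pc, with a mean of 3.44 FPKM, since Epi (0.695) lay below Neg (0.768) and was called above no fraction. Ltb fell below the size threshold without Pc replicate 1 (0.89) or Epi replicate 1 (0.91). All 9 differences were positive, with a median of 0.74 beside -0.04 over all rows. Nfkbia (0.92) and Eda (0.74) had adjusted p-values of 0.000402 and 0.000629 in limma with differences under the size threshold, and both were called with a pseudocount of 0.1.

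Neg had the lowest level of the adaptor and next to no receptor. Set against the mean of Pc, Epi, DC, Fb, Sch and Mc, 2 of 9 tested members were called, both lower, where 12.6% of all rows were called and 4.17% were called lower. Edaradd differed by -1.83 (SE 0.17, limma adjusted p = 6.59e-06), and both Neg libraries lay below all others. Edar differed by -1.01 (adjusted p = 0.000323 in limma), although DC and Fb were lower still. Pc and Epi are the fractions above 1 FPKM in that mean, and Edar passed the filter only through them. The Edar difference dropped under the size threshold without Neg, Sch, Epi or Mc replicate 1 (-0.86, -0.996, -0.99 and -0.97). Tnfrsf19 (-0.96) was called at -1.17 once libraries were rescaled to the same total and at -1.11 without Neg replicate 2. Rescaling moved the median over all rows from -0.03 to -0.20 in this comparison, and the share of higher rows among the called from 66.9% to 56.4%. It moved the median to -0.19 for the keratinocyte pair and to -0.15 for Mc against Sch.

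Between Mc and Sch, both derived from the neural crest, limma called 0 of 9 members, where 11.8% of all rows were called. At an unadjusted p under 0.05 there were 2, Eda (-0.67, adjusted p = 0.0702) and Edaradd (0.95, adjusted p = 0.0109 in limma). Edaradd was 2.32-fold higher in Mc in replicate 1 and 2.18-fold in replicate 2. It passed the size threshold at 1.15 with a pseudocount of 0.1 and at 1.03 with quantile normalization. The keratinocyte markers summed to 661 and 461 FPKM in Mc and to 239 and 41.2 in Sch. The part of keratinocyte RNA in the Edaradd difference was not tested.

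Whether the follicle fractions differ from their neighbours unequally in the epithelium and in the dermis was tested directly, as Pc minus Epi less DC minus Fb. Of 9 tested members 4 were called, all higher on the epithelial side, where 14.1% of all rows were called and 8.19% were called higher. Nfkbia gave 1.42 (SE 0.37, limma adjusted p = 0.0219), Eda 1.36, Edaradd 1.29 and Edar 1.18. For Eda, the epithelial difference was 0.25 and the dermal one -1.11, and for Edaradd they were 0.53 and -0.75. For Nfkbia they were 0.72 and -0.70. Edar is at 0 in both dermal fractions, so its value is that of Pc minus Epi. Without Epi replicate 2 only Eda was called. With the replicate term there were 6, against 20.2% of all rows, Ltb (adjusted p = 0.0447) and Traf6 (-1.09, adjusted p = 0.000333) being added in limma.

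The remaining genes of the pathway were taken from 4 lists, each measured with the same fit. The signal chain list ran from Furin through Traf and kinase genes to the IkB kinase subunits, and also held Cyld and Tnfaip3. Of its 17 tested genes, limma called 0 between Pc and Epi, where 1.52% of all rows were called, with 2 at an unadjusted p under 0.05. The chain's median difference was 0.04. With the replicate term it called Tnfaip3, the A20 gene whose product ends NF-kB signalling and which NF-kB induces. Tnfaip3 measured 6.27 and 6.22 FPKM in Pc against 3.13 and 1.96 in Epi (log2 difference 1.05, limma adjusted p = 0.075, and 0.0241 with the term). Traf3 was called higher in the keratinocyte pair than in the other fractions (1.01, limma adjusted p = 3.08e-05). No gene of the chain was called in DC against Fb, where 15.3% of all rows were called, with 2 of 17 at an unadjusted p under 0.05. Furin, the protease that frees the ligand, gave 10.7 and 6.52 FPKM in Pc against 7.88 and 6.72 in Epi.

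Of 7 tested NF-kB subunit and IkB genes, limma called 0 between Pc and Epi, where 1.52% of all rows were called. With the replicate term it also called 0, where 2.6% of all rows were called. At an unadjusted p under 0.05 without the term there was 1. That gene was Nfkbiz, which encodes an atypical nuclear IkB protein, with 1.40 and 0.805 FPKM in Pc against 2.47 and 2.93 in Epi (log2 difference -0.83, limma adjusted p = 0.128, and 0.0444 with the term). It was named after its value was seen, and it lay lower in Pc where Nfkbia, Relb and Tnfaip3 lay higher. Nfkbiz was called lower in DC (0.837 and 1.22 FPKM) than in Fb (3.996 and 3.05), by -1.16 log2 units (limma adjusted p = 0.003). With the replicate term Bcl3 was also called lower (-1.13, adjusted p = 0.116, and 0.00738 with the term in limma). Rel was higher in the keratinocyte pair than in the other fractions (1.01, limma adjusted p = 0.000416).

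Of 8 tested TNF family relatives, limma called 0 between Pc and Epi, where 1.52% of all rows were called, and 0 had an unadjusted p under 0.05. With the replicate term it also called 0, where 2.6% of all rows were called. Between DC and Fb it called 2 higher and 3 lower, where 6.13% of all rows were called higher and 9.2% lower. Ngfr, the p75 neurotrophin receptor gene, measured 444 and 208 FPKM in DC and 52.6 and 34.1 in Fb (log2 difference 2.82, limma adjusted p = 0.000241). Tnfrsf11a, the RANK gene, measured 6.35 and 7.44 FPKM in DC and 0.918 and 1.27 in Fb (1.92, limma adjusted p = 0.000221). Lower in DC were Cd40 (-1.66), the decoy receptor gene Tnfrsf11b (-1.37) and the TNF receptor gene Tnfrsf1a (-1.21). With the replicate term 2 more were lower, Ltbr, the receptor gene for lymphotoxin beta (-1.72, adjusted p = 0.0595, and 0.00127 with the term in limma), and Tnfrsf12a. The DC to Fb contrast among these receptors thus ran in both directions, as it did for Tnfrsf19 and Eda.

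Genes reported as targets of ectodysplasin were the list, of the 4, with the most calls between placode and epidermis. Of 14 tested, 4 were called higher in Pc and 0 lower, where 0.155% of all rows were called higher. Of the 14, 10 had an unadjusted p under 0.05, and 13 of 14 differences were positive with a median of 1.0, beside 0.00 over all rows. Dkk4, Fgf20, Shh and the uncalled Wnt10b are also in the placode marker list used above. The list was chosen with earlier results of these data known. These counts are therefore not independent of the fraction. Shh passed the filter only through both Pc libraries, and Fgf20 only through both Pc libraries and Epi replicate 1. Their calls are therefore not independent of the filter either. Dkk4, a Wnt inhibitor, measured 20.1 and 18.1 FPKM in Pc against 4.54 and 3.77 in Epi (1.96, limma adjusted p = 0.000346). Pthlh, which encodes a parathyroid hormone relative, measured 8.19 and 5.40 FPKM in Pc against 1.94 and 1.25 in Epi (1.57, limma adjusted p = 0.0034). The growth factor gene Fgf20 measured 3.59 and 3.93 FPKM in Pc against 1.30 and 0.444 in Epi (1.38, adjusted p = 0.00339 in limma). Shh, the Hedgehog ligand gene, measured 2.64 and 1.33 FPKM in Pc against 0.674 and 0.0457 in Epi (1.14, adjusted p = 0.0241 in limma). Fgf20 and Shh lay near 0 outside Pc and Epi, and the fit shares 1 spread over all fractions. The p-values of both genes therefore understate the spread where their replicates lie apart, as in Epi.

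Each of these 4 genes, picked by their call in this comparison, had both Pc libraries above both Epi libraries. The share of all rows without such overlap was not counted. With the replicate term Foxi3, a forkhead factor of placodes, was the fifth target called. It gave 31.1 and 17.3 FPKM in Pc against 7.09 and 4.80 in Epi (1.82, limma adjusted p = 0.133, and 0.0241 with the term). For Ccnd1, a cyclin gene, the mean was lower in Pc without a call, with 17.6 and 18.4 FPKM in Pc against 17.3 and 21.0 in Epi. Wnt10b, a Wnt ligand gene, gave 41.8 and 25.1 FPKM in Pc against 19.3 and 11.7 in Epi. Against the other fractions, 9 of 14 targets were called higher in the keratinocyte pair, led by Wnt10b (4.17), Foxi3 (3.37) and Dkk4 (3.19). Ccnd1 was the 1 called lower (-2.39), and 7.83% of all rows were called higher. Dkk4, Pthlh, Fgf20 and Shh reached 1 FPKM only in Pc and Epi libraries and passed the filter only through them. This count is therefore not independent of the filter. Between DC and Fb, 1 of 14 targets was called higher in DC, Fst (1.11), and 1 lower, Cxcl10 (-1.16). Of all rows, 6.13% were called higher and 9.2% lower in that comparison.

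**Figure D4:**
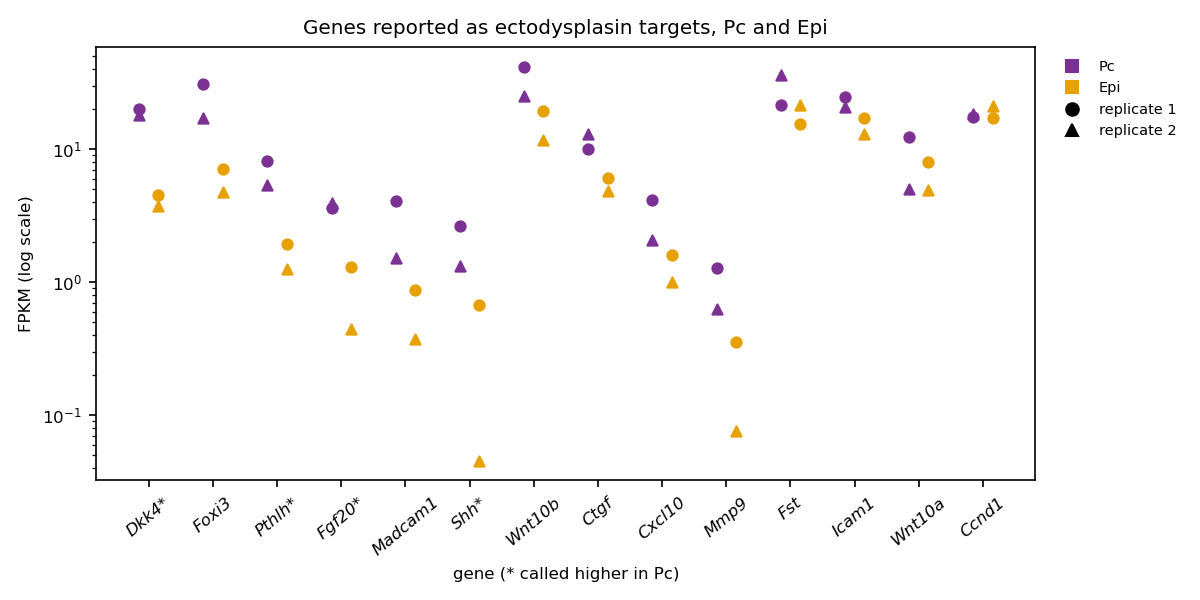
FPKM on a log axis (vertical) of the 14 tested genes reported as ectodysplasin targets (horizontal), ordered by Pc minus Epi, with Pc in purple, Epi in orange, circles for replicate 1 and triangles for replicate 2. The 4 genes with an asterisk (Dkk4, Pthlh, Fgf20, Shh) were called higher in Pc, and Ccnd1 at the right end overlaps between the fractions.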

How the data were processed

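RNA of 16 libraries, 8 sorted fractions with 2 each, was measured by sequencing. Per the labels' protocols, 6 ng of RNA (integrity number 8.8 or higher) was amplified with a NuGEN kit. The authors deposited 1 table of FPKM values, with no counts. Cufflinks 2.1.1, TopHat2 2.0.3, Bowtie2 and the build mm10 are named, per the submitters' processing notes, without settings. FPKM depend on the assembled length, so a row spanning neighbours can be off, and whether libraries were scaled to each other is not stated.

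Values were fitted as log2(FPKM + 1) with limma 3.58.1 in R 4.3.3 (trended, robust), 1 mean per fraction over all libraries, after a filter of 1 FPKM in 2 libraries, and the script was tested on simulated data. The labels do not say that the numbers pair the samples. The deviations of same-numbered libraries correlated in 28 of 28 pairs of fractions (0.148 to 0.656, median 0.491). The share of low FPKM values on 1 common step was 2.62% to 3.47% in replicate 1 libraries and 12.4% to 28.6% in replicate 2. The source of this shared difference was not tested, and a term for the replicate number was fitted as an alternative. The fit without this term is the main one.

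Members, lists and markers were chosen with earlier results of these data known. All members are named. Of each other list, every called gene is named for Pc against Epi, and up to 3 per direction otherwise. Likeness was Pearson's r over the libraries. One gene that this rule selects is not reported here. Of the 14 TNF family relatives, Tnfsf12 had no row of that name. The neuron markers had their highest sum in Mc. Depth came from the step between low FPKM values of replicate 2. Promoters are RefSeq's (GRCm38.p6) and gene spans GENCODE's. Alternatives covered the pseudocount, filters, scaling, the replicate term, the spread estimate, the libraries fitted and each library left out.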

Additional observations from a re-analysis of the deposited data

Results flagged for a closer look

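The difference between Pc and Epi was unlike the difference between DC and Fb in 4 members, by a limma test of the difference between both differences over all rows. In log2 units it was 1.36 for Eda (SE 0.32, limma adjusted p = 0.0121), 1.18 for Edar (SE 0.28, adjusted p = 0.012), 1.29 for Edaradd (SE 0.31, adjusted p = 0.0151) and 1.42 for Nfkbia (SE 0.37, adjusted p = 0.0219). For Eda, the fit kept this call under each of the 15 alternatives run. Edar is listed at 0 in DC and Fb, and its value is that of the epithelial difference alone. Edar was not called with a pseudocount of 0.1 (adjusted p = 0.417) or without Epi replicate 2 (0.0555) in limma. Edaradd was not called without Fb replicate 2 (adjusted p = 0.0544), Pc replicate 2 (0.0777) or Epi replicate 2 (0.0552) in limma. Nfkbia was not called without Fb replicate 1 (0.0805), DC replicate 1 (0.0798), Pc replicate 1 (0.0864) or Epi replicate 2 (0.093), and its row spans neighbouring genes.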

How the results depend on the processing

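Over 54 differences of single members and 821 alternative values, 786 kept their side of the threshold, 14 gained a call, 21 lost one and 0 reversed. A change of sign counted as reversed only if a value was called or both differences exceeded their SE. Changes of sign in smaller differences would be among the 786. The count of called members in Pc against Epi, 1, became 0 with a pseudocount of 0.1, 0 in a fit of the 4 libraries alone and 3 with the replicate block. In DC against Fb, 2 became 0 with the 4 libraries alone, a fit that tested 7 members. In Mc against Sch, 0 became 1 (Edaradd) with a pseudocount of 0.1 and with quantile normalization. The keratinocyte pair went from 3 to 5 with a pseudocount of 0.1. Leaving out 1 library at a time gave 0 to 1 members for Pc against Epi, 2 for DC against Fb, 0 for Mc against Sch, 2 to 4 for the keratinocyte pair, 1 to 3 for Neg, 1 to 5 for the difference of differences and 5 to 7 for the F test. The cause was not tested. Where a fraction keeps 1 library, that library is assumed to vary like the others.

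The replicate block, a term for the replicate number, added Relb and Ltb in Pc against Epi. It added Ltb and Traf6 in the difference of differences (6 members in place of 4). In the F test it added Relb (8 in place of 7). It changed no other call of a member in these comparisons. Members under 1 FPKM rest on few fragments, and depth is unknown for replicate 1.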
